A study of Mus musculus with 9 samples.

Results

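Brains of PG9V mice were compared with brains of wild-type (WT) mice across all expressed genes, with 3 libraries of each genotype out of the 9 libraries of the study. The comparison was defined by genotype alone, and 17057 of the 33641 genes in the table had enough counts to be tested in it. PG9V and PG9VN are mutant lines made to model neuronopathic Gaucher disease, the form of this lysosomal storage disorder that reaches the brain. Both lines lack progranulin (Grn), which is background knowledge that the labels do not state, and the WT group has it. All mice were 7.5 months old and untreated, and each library came from a different mouse, so the spread within a group is the spread between 3 mice. The labels give no sex, litter or strain background, so an effect of the mutations and an effect of a different strain background cannot be told apart.

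In lysosomal storage disorders undigested lipid builds up in lysosomes, above all in phagocytes. Progranulin is secreted, taken up and cut into granulins in lysosomes, and it helps several lysosomal enzymes to fold or work. Microglia, the resident phagocytes of the brain, make most of its progranulin together with neurons, and in mice without progranulin they and the astrocytes are known to become reactive with age, first in the thalamus. The dissected piece held thalamus, hypothalamus and midbrain.

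Totals of the estimated counts were 28594960 to 35349217 per library. The first principal component held 48.8% of the variance and put the PG9V libraries at 21.2 to 35.5 and the WT libraries at -36.6 to -25.1. Ddx3y, a gene of the Y chromosome, was near 0 in PG9V replicate 2 (0.264 CPM) and in WT replicate 1 (0.452 CPM), and stood at 60.9 to 69.1 CPM in the other libraries, so each genotype held 1 library without Y-linked counts. CPM are counts scaled to the normalized size of each library, a unit that is not divided by gene length. In bulk tissue, fewer cells of a type and less RNA per cell cannot be told apart, and the same holds for more.

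PG9V brains had 564 genes higher (3.31% of those tested) and 246 genes lower (1.44%) than WT brains at an adjusted p under 0.05. The higher genes moved further: their median log2 fold change was 0.83 and 231 of them rose at least 2-fold, whereas the lower genes had a median of -0.42 and 15 of them fell at least 2-fold. The median over all genes tested was -0.00. An unadjusted p under 0.05, in either direction, was met by 3977 of the 17057 genes tested. DESeq2 called 892 genes higher and 675 lower. List counts below that use an unadjusted p or DESeq2 are to be read against these numbers. Among the higher genes PG9V replicate 2 had the highest value of the PG9V libraries for 380, PG9V replicate 1 for 155 and PG9V replicate 3 for 29. The counts leaned on single libraries. Without PG9V replicate 1 179 genes were higher and 31 lower, against 233 and 49 without PG9V replicate 2 and 228 and 51 without WT replicate 1. Leaving out WT replicate 3 gave 234 and 86. Leaving out PG9V replicate 3 gave 648 and 233, and leaving out WT replicate 2 gave 389 and 208. In all 6 of these fits 152 higher and 27 lower genes were called. Genes named below with a call against WT were called in all 6, unless the text says otherwise. With the 4 libraries that hold Y-linked counts alone, several calls that held in those 6 fits were not made: Spi1, Lcn2, Aqp4, Tnfrsf1a, Apoe, Ch25h, Vwf, Tmem106a, Rps2, Grm2, Ntng1, Amotl1 and Adarb1 then had adjusted p-values of 0.0519 to 0.111.

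**Figure D1:**
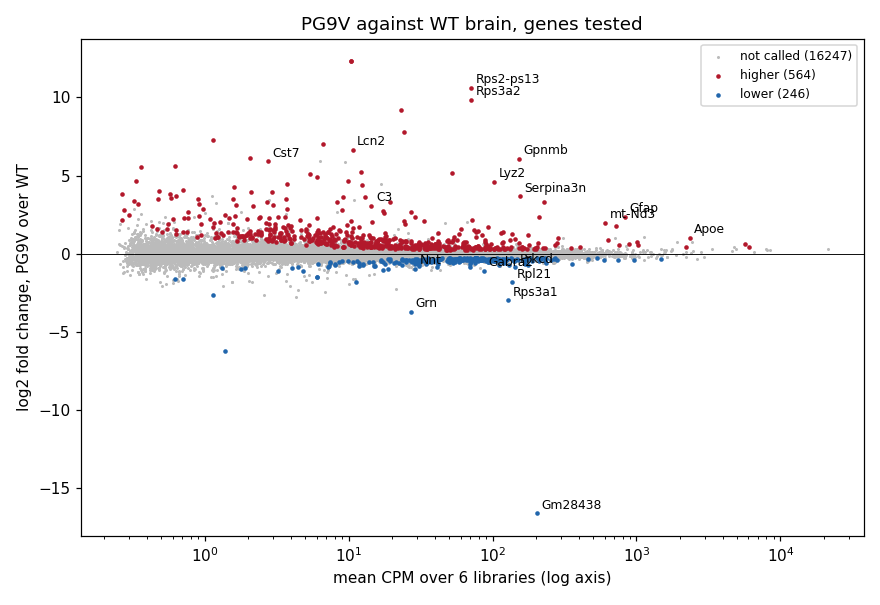
Log2 fold change of PG9V over WT (vertical axis) against mean CPM over the 6 libraries (horizontal log axis) for the 17057 genes tested; red points are the 564 genes called higher and blue points the 246 called lower. At the median the red points lie further from 0 than the blue ones, 0.83 against -0.42. Gm28438, at -16.60, is blue. The points farthest from 0 belong to genes with almost no counts in 1 genotype, such as Gm28438, Rps3a2, Lcn2 and Cst7. Their fitted values depend on the prior count.

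Grn, the gene that PG9V mice lack, had 4.35, 2.57 and 4.76 CPM in the PG9V libraries, against 55.8, 47.3 and 48.4 CPM in the WT libraries. The groups lay far apart, with a log2 fold change of -3.70 ± 0.21 (SE, adjusted p = 0.000292). Partners of progranulin did not pass the test: Psap, the precursor of the saposins, had a log2 fold change of 0.28 (adjusted p = 0.0605), and Sort1, the receptor that takes up progranulin, had -0.13 (adjusted p = 0.533).

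Genes of phagocytes rose widely, against the background of 3.31% of all genes tested. Of 30 disease-associated microglia genes tested, a program that microglia switch on near plaques, dying cells and undigested lipid, 24 rose and 0 fell (median log2 fold change 1.32). Of 19 phagocyte receptors tested 16 rose and 0 fell (median 1.90), and of 18 markers of microglia and macrophages 13 rose and 0 fell (median 1.29). Without WT replicate 1, WT replicate 2 or WT replicate 3 the disease-associated count was 14, the marker count was 8 without WT replicate 1 and 7 without WT replicate 2 or WT replicate 3, and the receptor count was 10 without WT replicate 1.

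Itgax, the CD11c integrin chain, had 5.13, 6.40 and 5.05 CPM in PG9V brains, against 0.418, 0.310 and 0.336 CPM in WT brains. Its log2 fold change was 3.95 ± 0.22 (adjusted p = 5.42e-05), and the groups did not overlap. Clec7a, the beta-glucan receptor Dectin-1, had 9.06, 17.1 and 8.85 CPM in the PG9V libraries and 0.557, 0.378 and 0.252 CPM in the WT libraries (log2 fold change 4.89 ± 0.39, adjusted p = 0.00162). PG9V replicate 2 held about as much Clec7a as the other PG9V libraries together. Trem2, the lipid-sensing receptor through which microglia enter this state, had 36.3, 50.6 and 29.3 CPM in PG9V brains against 10.2, 10.9 and 10.3 CPM in WT brains (log2 fold change 1.89 ± 0.20, adjusted p = 0.0051). Cst7, which encodes the cathepsin inhibitor cystatin F, had 5.41, 6.89 and 3.86 CPM in PG9V brains and only 2, 3 and 3 counts in the WT libraries, so its fold change rests on very few WT counts (adjusted p = 8.42e-05).

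Several abundant phagocyte genes varied widely between PG9V mice. Gpnmb, a transmembrane glycoprotein of lipid-laden macrophages and a marker of Gaucher cells, had 201, 529 and 171 CPM in PG9V brains, against 4.18, 5.16 and 4.01 CPM in WT brains. Its log2 fold change was 6.08 ± 0.63 (adjusted p = 0.0149), and the adjusted p was 0.0752 to 0.0856 without any 1 of the WT replicates, although the groups did not overlap. Lyz2, the lysozyme of myeloid cells, had 157, 301 and 131 CPM in PG9V brains and 8.80, 7.36 and 7.98 CPM in WT brains (log2 fold change 4.61 ± 0.40, adjusted p = 0.00748, or 0.0542 without WT replicate 2). Both genes were highest in PG9V replicate 2 and lowest in PG9V replicate 3. Lgals3, the galectin that binds damaged lysosomes, followed the same order at 16.8, 38.5 and 15.2 CPM in the PG9V libraries against 1.39, 1.07 and 0.925 CPM in the WT libraries (log2 fold change 4.39 ± 0.48, adjusted p = 0.0106, or 0.0671 to 0.0704 without any 1 WT replicate).

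The receptors included inhibitory and activating kinds. Fcgr2b, the inhibitory Fc receptor, had 27.8, 38.1 and 24.2 CPM in PG9V brains and 4.32, 5.30 and 3.73 CPM in WT brains (log2 fold change 2.76 ± 0.21, adjusted p = 0.00108). The inhibitory receptor genes Lilrb4a and Lilr4b rose by log2 fold changes of 4.66 ± 0.44 and 4.44 ± 0.41, and Mpeg1, the pore-forming perforin-2 of phagocytes, by 2.13 ± 0.17. Cybb, the catalytic chain of the phagocyte NADPH oxidase, rose by 2.36 ± 0.19. Spi1, which encodes PU.1, the transcription factor that sets myeloid identity, had 7.78, 7.95 and 6.31 CPM in PG9V brains against 2.40, 2.79 and 2.91 CPM in WT brains (log2 fold change 1.44 ± 0.16, adjusted p = 0.00304).

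Few genes of resting microglia passed edgeR's test. Of 18 homeostatic genes tested 1 rose and 0 fell, with a median of 0.29; without PG9V replicate 3 the count was 2. DESeq2 called 4 higher and 1 lower, and 11 genes lay above and 2 below WT at an unadjusted p under 0.05. Cx3cr1, the fractalkine receptor, had a log2 fold change of 0.33 and was called by DESeq2 (adjusted p = 0.0234) but not by edgeR. P2ry12, the purinergic receptor of resting microglia, had 34.8, 29.4 and 32.5 CPM in PG9V brains and 28.5, 26.5 and 30.6 CPM in WT brains, which overlap, with a log2 fold change of 0.17 ± 0.09 (adjusted p = 0.277). Tmem119, a marker that separates microglia from other macrophages, had 0.08 ± 0.14 (adjusted p = 0.786), and Fcrls, another one, had -0.41 ± 0.12 (adjusted p = 0.0961).

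**Figure D2:**
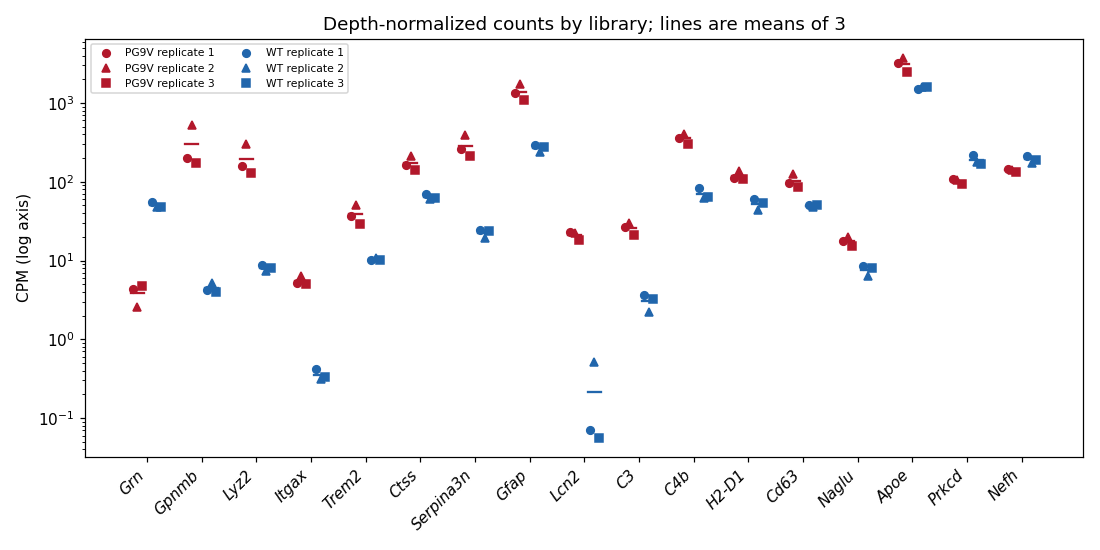
CPM (vertical log axis) of 17 genes in each library, with PG9V in red left of WT in blue, 1 symbol per replicate and a line at the mean of 3. Grn is the gene with the lower PG9V values at the left, Prkcd and Nefh are lower in PG9V at the right, and the other genes are higher in all 3 PG9V libraries than in all 3 WT libraries.

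Astrocytes, which support neurons and seal the vessels of the brain, were the other glial type with broad rises. Of 30 reactive astrocyte genes tested 17 rose and 0 fell, at a median fold change of 0.93 on the log2 scale; the count was 10 without PG9V replicate 1 or WT replicate 3 and 11 without PG9V replicate 2. Gfap, the intermediate filament protein that defines reactive astrocytes, had 1350, 1748 and 1078 CPM in PG9V brains and 292, 239 and 278 CPM in WT brains. Its log2 fold change was 2.37 ± 0.18 (adjusted p = 0.00136). Serpina3n, a secreted protease inhibitor of reactive astrocytes and oligodendrocytes, had 260, 389 and 213 CPM in PG9V brains against 24.5, 19.6 and 23.4 CPM in WT brains (log2 fold change 3.68 ± 0.26, adjusted p = 0.00204). Both genes kept the order of the PG9V libraries seen for the phagocyte genes.

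Lcn2, the iron-carrier-binding lipocalin secreted by reactive astrocytes, had 22.9, 22.03 and 18.3 CPM in PG9V brains, and 2, 15 and 2 counts in the WT libraries (adjusted p = 0.00216). Its PG9V values were close together, unlike those of Gpnmb. Tgm1, a transglutaminase, rose by a log2 fold change of 5.10 ± 0.30 and Vim, another intermediate filament protein, by 1.43 ± 0.16. Chil1, a secreted chitinase-like protein of astrocytes, had 54.5, 59.99 and 46.7 CPM in PG9V brains and 12.8, 12.4 and 12.5 CPM in WT brains (log2 fold change 2.09 ± 0.10, adjusted p = 2.54e-05).

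Genes of ordinary astrocyte function had fewer calls: 5 of 16 tested rose and 0 fell, with a median of 0.34. The count was 1 without PG9V replicate 1 and 3 without PG9V replicate 2 or WT replicate 3, and DESeq2 called 9. Aqp4, the water channel of astrocyte endfeet, had 356, 356 and 322 CPM in PG9V brains against 223, 193 and 222 CPM in WT brains (log2 fold change 0.70 ± 0.08, adjusted p = 0.00411). The glutamate transporter Slc1a2 had a log2 fold change of 0.06 and the gap junction gene Gja1 had 0.07, and neither passed the test.

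Complement tags synapses and debris for removal by microglia. Of 20 complement genes tested 10 rose and 0 fell (median 0.76). Among them were C1qa, C1qb and C1qc, the chains of the initiating complex, whose calls were not all kept when 1 library was left out. C3, the central component, had 26.3, 29.7 and 21.2 CPM in PG9V brains and 3.69, 2.24 and 3.28 CPM in WT brains (log2 fold change 3.06 ± 0.20, adjusted p = 0.000322). C4b, which is cleaved before C3, had 356, 407 and 300 CPM in PG9V brains against 82.3, 61.5 and 64.7 CPM in WT brains (log2 fold change 2.35 ± 0.15, adjusted p = 0.00036). C3ar1, the receptor for a fragment of C3, rose by 1.81 ± 0.15.

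Signals between immune cells changed in fewer members. Of 21 chemokines and cytokines tested 6 rose and 0 fell, or 2 without PG9V replicate 1 or PG9V replicate 2 and 3 without WT replicate 3; DESeq2 called 10. Ccl3, a chemokine that draws myeloid cells, had 2.79, 4.02 and 1.90 CPM in PG9V brains and 0.383, 0.138 and 0.252 CPM in WT brains (log2 fold change 3.48 ± 0.41, adjusted p = 0.00411). Of 28 cytokine and pattern receptors tested 11 rose and 0 fell, or 5 without PG9V replicate 1, PG9V replicate 2, WT replicate 1 or WT replicate 3. Tlr2, a receptor for bacterial lipoproteins, rose by a log2 fold change of 1.83 ± 0.25, and Tnfrsf1a, the main receptor for tumour necrosis factor, by 0.87 ± 0.11.

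Genes of antigen presentation rose in both classes. Of 20 class I and peptide loading genes tested 6 rose and 0 fell (median 0.50), or 2 without PG9V replicate 1 and 3 without PG9V replicate 2 or WT replicate 3. H2-D1, a classical class I heavy chain, had 111, 135 and 107 CPM in PG9V brains against 60.5, 43.4 and 53.5 CPM in WT brains (log2 fold change 1.17 ± 0.14, adjusted p = 0.00647). Class I heavy chains are near-identical to each other and to their pseudogenes, so their separate values are uncertain. Of 9 class II genes tested 7 rose and 0 fell (median 1.25), or 4 without PG9V replicate 1, PG9V replicate 3, WT replicate 1 or WT replicate 2. H2-Aa, a class II chain, had 7.15, 4.32 and 6.21 CPM in PG9V brains and 2.33, 1.93 and 2.24 CPM in WT brains (log2 fold change 1.44 ± 0.21, adjusted p = 0.00972), and Cd74, the invariant chain that escorts it, had 17.1, 11.2 and 12.9 CPM in PG9V brains and 6.02, 4.16 and 5.80 CPM in WT brains (log2 fold change 1.36 ± 0.20, adjusted p = 0.0101). For both genes PG9V replicate 2 was the lowest of the PG9V libraries, the reverse of its place for Gpnmb and Gfap.

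Few interferon-induced genes passed the test, and the type I share was close to the 3.31% of all genes tested that were called higher. Of 34 type I interferon genes tested 1 rose, Mx1, and 0 fell, at a median fold change of 0.31 on the log2 scale, and Mx1 had an adjusted p of 0.0643 to 0.148 without any 1 library. Of the 34, 31 had a positive fold change, and at an unadjusted p under 0.05, 8 lay above and 1 below WT. In either direction 3977 of the 17057 genes tested met that threshold, a similar share. Without WT replicate 1 edgeR called 4 higher, as did DESeq2 with all 6 libraries. That library had the highest mean of this list among the WT libraries, 0.38 above the WT mean on the log2 scale, against -0.21 and -0.17 in the other two, while the PG9V libraries stood at 0.45, 0.43 and 0.25. Of 15 genes of the interferon-gamma GTPase list 2 rose and 0 fell, Irgm1 and Irf1, and both calls ended without any 1 library. DESeq2 called 3 of this list higher and 0 lower, and 5 lay above and 0 below WT at an unadjusted p under 0.05.

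**Figure D3:**
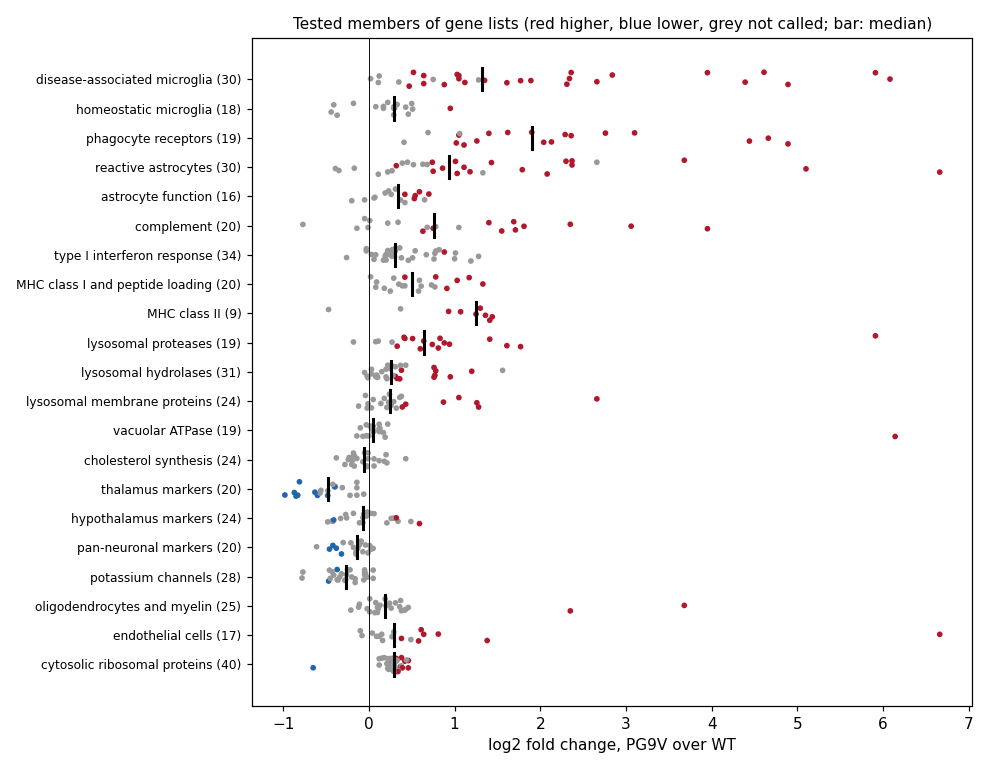
Log2 fold change of PG9V over WT (horizontal axis) for every tested member of 21 gene lists, with the number of members in parentheses; red points were called higher, blue points lower, grey points not called, and a black bar marks the median. The phagocyte receptor list has the rightmost median at 1.90, and the thalamus list has the leftmost at -0.48; the points of Cst7, Lcn2 and Atp6v0d2 rest on very few WT counts and depend on the prior count.

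Lysosomal genes rose by class. Of 19 lysosomal proteases and their inhibitors tested 15 rose and 0 fell, with a median of 0.64; of 31 hydrolases 10 rose and 0 fell (median 0.26); of 24 membrane and transport proteins 7 rose and 0 fell (median 0.25). Of 19 subunits of the proton pump 1 rose, with a median of 0.05. The protease count was 4 without PG9V replicate 1 or WT replicate 1, 8 without PG9V replicate 2, 7 without WT replicate 2 and 3 without WT replicate 3. The hydrolase count was 4 without PG9V replicate 1 or WT replicate 1, 5 without PG9V replicate 2, 6 without WT replicate 2 and 3 without WT replicate 3, and the membrane count was 3 without PG9V replicate 1 or WT replicate 3 and 4 without WT replicate 2. Several of these genes are also microglial markers, and the markers of microglia and macrophages summed to 1018, 1308 and 889 CPM in the PG9V libraries against 556, 494 and 502 CPM in the WT libraries; the part of cell number in the lysosomal rises was not tested.

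Ctss, the cysteine protease of phagocytes that trims the class II invariant chain, had 162, 212 and 143 CPM in PG9V brains, against 70.8, 60.2 and 63.0 CPM in WT brains (log2 fold change 1.41 ± 0.15, adjusted p = 0.00467). Ctsd, the aspartic protease that cuts prosaposin, had 944, 1579 and 816 CPM in PG9V brains and 363, 304 and 314 CPM in WT brains. Its log2 fold change was 1.77 ± 0.26 (adjusted p = 0.0218), and the adjusted p was 0.0604 to 0.0831 without PG9V replicate 1 or any 1 WT replicate. Naglu, an enzyme of heparan sulfate breakdown, had 17.9, 19.6 and 15.1 CPM in PG9V brains against 8.63, 6.30 and 7.98 CPM in WT brains (log2 fold change 1.20 ± 0.15, adjusted p = 0.00467). Man2b1, the acid mannosidase, rose by 0.76 ± 0.07.

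Among membrane proteins Cd63, a tetraspanin of late endosomes, had 97.6, 126 and 85.1 CPM in PG9V brains and 50.8, 47.5 and 50.3 CPM in WT brains (log2 fold change 1.05 ± 0.13, adjusted p = 0.00794, or 0.0501 in the fit of all 9 libraries). Lamp1, the most abundant glycoprotein of the lysosomal membrane, had 488, 492 and 424 CPM in PG9V brains against 362, 331 and 349 CPM in WT brains (log2 fold change 0.43 ± 0.08, adjusted p = 0.0246). Its adjusted p was 0.0513 to 0.106 without PG9V replicate 1, PG9V replicate 2 or any 1 WT replicate. Atp6v0d2 was the proton pump subunit that rose. It is a form of the d subunit found in macrophages and osteoclasts, and it had 3.11, 5.94 and 3.15 CPM in PG9V brains and 0, 4 and 1 counts in the WT libraries (adjusted p = 0.00297), while its widely expressed counterpart Atp6v0d1 had a log2 fold change of 0.12 and did not pass.

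Genes of lysosomal proteins often carry the E-box TCACGTG, bound by TFEB and related factors, near their start. The windows from 250 bases before to 50 bases after the RefSeq start (GRCm38.p6) are shown for 3 lysosomal genes named above and for Ctss, with the motif in capitals on either strand; Ctss has no E-box and shows instead GAGGAAGT, a core bound by PU.1. The Lamp1 window lies at chr8:13158911-13159210 on the plus strand, that of Ctsd at chr7:142387778-142388077 on the minus strand, that of Naglu at chr11:101069844-101070143 on the plus strand and that of Ctss at chr3:95526536-95526835 on the plus strand.
Lamp1: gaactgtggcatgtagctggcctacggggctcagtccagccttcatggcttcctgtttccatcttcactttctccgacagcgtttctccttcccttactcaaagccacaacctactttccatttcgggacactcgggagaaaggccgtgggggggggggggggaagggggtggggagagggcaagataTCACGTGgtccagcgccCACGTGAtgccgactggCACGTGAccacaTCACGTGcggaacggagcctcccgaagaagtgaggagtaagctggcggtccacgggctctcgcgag
Ctsd: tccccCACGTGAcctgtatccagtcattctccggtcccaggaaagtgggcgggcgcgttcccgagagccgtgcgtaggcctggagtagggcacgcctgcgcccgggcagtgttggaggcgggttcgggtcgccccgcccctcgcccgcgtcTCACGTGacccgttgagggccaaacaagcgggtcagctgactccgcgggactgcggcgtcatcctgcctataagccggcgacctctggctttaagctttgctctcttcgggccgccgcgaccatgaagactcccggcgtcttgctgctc
Naglu: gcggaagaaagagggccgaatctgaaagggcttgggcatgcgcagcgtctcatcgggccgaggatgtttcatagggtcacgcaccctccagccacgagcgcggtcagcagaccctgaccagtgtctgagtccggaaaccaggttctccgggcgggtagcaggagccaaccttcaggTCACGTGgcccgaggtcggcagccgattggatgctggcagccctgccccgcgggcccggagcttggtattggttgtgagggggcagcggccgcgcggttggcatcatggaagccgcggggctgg
Ctss: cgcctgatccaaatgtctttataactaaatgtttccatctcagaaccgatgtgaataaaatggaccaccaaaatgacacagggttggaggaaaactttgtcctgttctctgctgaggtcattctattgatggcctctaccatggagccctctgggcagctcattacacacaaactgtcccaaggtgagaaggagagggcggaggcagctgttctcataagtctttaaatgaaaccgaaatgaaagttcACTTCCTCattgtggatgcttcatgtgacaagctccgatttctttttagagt

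The Lamp1 window held 4 E-boxes, that of Ctsd 2 and that of Naglu 1, all counted on both strands. Of 59 tested genes of the lysosomal lists with a window 12 held TCACGTG (20.3%), and of the 26 among them that rose 5 did (19.2%). The share was 6.18% over all tested genes with a window and 3.77% over all windows in the table. GAGGAAGT was in 38 of 416 windows of higher genes (9.13%), in 5.56% of windows of lower genes and in 3.36% of those of tested genes. An interferon-type pattern was in 5.53% of windows of higher genes and 3.86% of those of tested genes, and the AP-1 pattern TGACTCA was in 6.49% and 4.69%. These 4 patterns were chosen after values had been seen, and a match describes the letters of a window, not binding.

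Sphingolipid genes were called in both directions. Of 30 sphingolipid genes tested 3 rose and 3 fell (median -0.05). Those that fell act in the making of glycosphingolipids: Ugcg makes glucosylceramide, B4galt5 adds galactose to it and St8sia1 makes ganglioside GD3. Ugcg had 55.8, 57.7 and 65.6 CPM in PG9V brains against 74.6, 78.4 and 72.5 CPM in WT brains (log2 fold change -0.33 ± 0.08, adjusted p = 0.0467). B4galt5 and St8sia1 had log2 fold changes of -0.34 ± 0.06 and -0.38 ± 0.08. Those that rose were Gm2a, the GM2 activator protein (0.52), Smpd2, a neutral sphingomyelinase (0.37), and Sgpl1, the sphingosine phosphate lyase (0.39). All 6 calls depended on single libraries: none of the 3 falls and none of the 3 rises was called without PG9V replicate 1 or PG9V replicate 2.

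Of 17 genes of cholesterol efflux and LXR targets 4 rose and 0 fell (median 0.36), or 2 without PG9V replicate 1 or WT replicate 3. Apoe, the main lipid carrier of the brain, had 3218, 3737 and 2491 CPM in PG9V brains and 1483, 1573 and 1578 CPM in WT brains (log2 fold change 1.03 ± 0.14, adjusted p = 0.00748). Ch25h, which makes 25-hydroxycholesterol, rose by 1.99 ± 0.28. Cholesterol synthesis had 0 of 24 genes called in edgeR's test (median -0.06), while an unadjusted p under 0.05 was met by 0 genes above and 7 below WT, and DESeq2 called 0 and 1; without WT replicate 2 the counts were 1 higher and 2 lower. Of 30 iron and redox genes tested 8 rose and 1 fell, or 2 higher without PG9V replicate 1, 5 without PG9V replicate 2 or WT replicate 2 and 4 without WT replicate 1 or WT replicate 3. Ftl1, the ferritin light chain, had 368, 458 and 312 CPM in PG9V brains against 188, 199 and 183 CPM in WT brains (adjusted p = 0.00748, or 0.066 in the fit of all 9 libraries), with no overlap, and Hmox1, which frees iron from heme, rose by 1.37 ± 0.20.

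Thalamic genes were lower. Of 20 thalamus markers tested 0 rose and 9 fell, at a median fold change of -0.48 on the log2 scale, and the count was 6 to 11 without any 1 library. All 20 had a negative fold change, and for 14 every PG9V library lay below every WT library, as for 14.4% of all genes tested. Prkcd, a kinase of first-order thalamic relay neurons, had 107, 106 and 93.0 CPM in PG9V brains and 216, 176 and 166 CPM in WT brains (log2 fold change -0.87 ± 0.11, adjusted p = 0.0052). Ramp3, a receptor-modifying protein, had 12.7, 12.99 and 12.1 CPM in PG9V brains against 29.9, 23.7 and 20.7 CPM in WT brains (log2 fold change -0.98 ± 0.13, adjusted p = 0.00692). The PG9V values of both genes were closer together than the WT values.

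Ntng1, the axon guidance ligand netrin-G1, had 59.7, 63.2 and 58.1 CPM in PG9V brains and 98.6, 83.2 and 93.0 CPM in WT brains (log2 fold change -0.60 ± 0.08, adjusted p = 0.00558). Synpo2, Amotl1 and Adarb1 fell by log2 fold changes of -0.85 ± 0.11, -0.48 ± 0.06 and -0.63 ± 0.09. Adarb1 encodes an RNA-editing deaminase of neurons. In the fit of all 9 libraries the folds were close to these, but Prkcd (adjusted p = 0.0501), Ntng1 (0.23), Ramp3 (0.242) and Amotl1 (0.466) were not called. The thalamus count was 4 with the libraries that hold Y-linked counts alone. Slc17a6, the vesicular glutamate transporter of thalamic and other subcortical neurons, had -0.31 ± 0.16 and did not pass (adjusted p = 0.284).

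Markers of some regions differed between libraries of the same genotype. Markers of the cerebellum, which the labelled tissue does not include, had 0 of 16 members called, but PG9V replicate 3 stood 2.06 above the WT mean on the log2 scale, against 0.21 and -0.09 in the other PG9V libraries. Gabra6, a receptor subunit of cerebellar granule cells, had 36.6 CPM in PG9V replicate 3, against 0.814 and 0 CPM in the other PG9V libraries and 0.103 to 0.348 CPM in the WT libraries. Ttr, the transthyretin of the choroid plexus, had 1100, 1163 and 690 CPM in PG9V brains and 1575, 71.9 and 460 CPM in WT brains. Tph2, which makes serotonin in the raphe, had 0.920, 0.660 and 4.73 CPM in PG9V brains against 4.11, 1.31 and 29.4 CPM in WT brains.

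The means of the thalamus list were -0.54, -0.47 and -0.46 in the PG9V libraries and 0.14, -0.13 and -0.01 in the WT libraries, with no overlap. The part of the dissection in the lower thalamic values was not tested. Of 24 hypothalamus markers tested 2 rose and 1 fell (median -0.07), and 0 rose without PG9V replicate 1, PG9V replicate 2 or any 1 WT replicate, and 1 without PG9V replicate 3. Hcrt, the arousal peptide orexin, was among those that rose (log2 fold change 0.59 ± 0.13), with an adjusted p of 0.061 to 0.11 without any of those libraries. Markers of midbrain and hindbrain (22 tested), cortex and hippocampus (17), striatum (14) and choroid plexus (16) had 0 calls in edgeR's test. At an unadjusted p under 0.05 they had 1, 4, 0 and 0 genes, the cerebellum list had 2, and DESeq2 called 0, 4, 0, 0 and 1 in the same order; without WT replicate 2 edgeR called 1 of the cortex list.

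**Figure D4:**
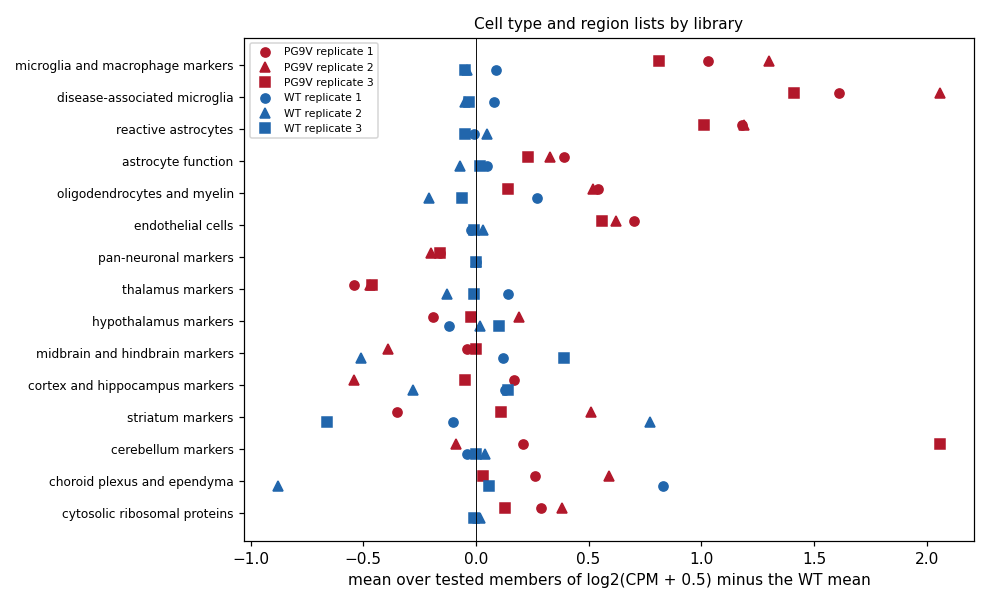
Mean over the tested members of 15 cell type and region lists of log2(CPM + 0.5) minus the WT mean (horizontal axis), 1 symbol per library, PG9V in red above WT in blue. The 3 PG9V libraries lie between -0.54 and -0.46 for the thalamus list, and PG9V replicate 3 stands apart at 2.06 for the cerebellum list.

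Few neuronal genes passed the test, but in each neuronal list below the share that fell was above the 1.44% of all genes tested. Of 20 pan-neuronal markers tested 0 rose and 4 fell (median -0.14), or 0 without PG9V replicate 1, WT replicate 1 or WT replicate 3, 1 without PG9V replicate 2 and 2 without PG9V replicate 3; DESeq2 called 7. Nefh, the heavy neurofilament chain of thick axons, had 145, 142 and 132 CPM in PG9V brains and 214, 171 and 191 CPM in WT brains (log2 fold change -0.46 ± 0.09, adjusted p = 0.0277, or 0.0664 to 0.0911 without any 1 library but WT replicate 2). Nefm, the medium chain, fell by -0.42 ± 0.07 (adjusted p = 0.0174), or did not pass without PG9V replicate 1, WT replicate 1 or WT replicate 3 (0.0558 to 0.0749). Other neuronal lists had few calls in edgeR's test: 2 of 22 GABA genes, 1 of 27 glutamate receptor genes, 2 of 25 presynaptic genes and 2 of 28 potassium channel genes fell and 0 rose, with medians of -0.22, -0.18, -0.16 and -0.27. In the same order DESeq2 called 5, 2, 4 and 8 genes lower, and 10, 9, 5 and 13 lay below WT at an unadjusted p under 0.05. The glutamate receptor was Grm2, a presynaptic metabotropic receptor, at 26.9, 26.6 and 24.9 CPM in PG9V brains and 34.8, 36.6 and 38.9 CPM in WT brains (log2 fold change -0.49 ± 0.07, adjusted p = 0.00972, or 0.525 in the fit of all 9 libraries). The glutamate count was 3 without PG9V replicate 3 and 2 without WT replicate 2, and the GABA count was 1 without PG9V replicate 1, PG9V replicate 2 or WT replicate 1. The presynaptic and potassium channel counts were 0 without PG9V replicate 1, PG9V replicate 2, WT replicate 1 or WT replicate 3, both were 1 without PG9V replicate 3, and the presynaptic count was 1 without WT replicate 2.

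A few chaperone genes fell. The share of heat shock genes that fell was above the 1.44% of all genes tested. At an unadjusted p under 0.05, 2 heat shock genes lay above and 9 below WT. Of 20 heat shock genes tested 0 rose and 3 fell (median -0.18), or 0 without PG9V replicate 1 and 1 without PG9V replicate 3, WT replicate 1 or WT replicate 2; 1 rose without PG9V replicate 3, and DESeq2 called 1 higher and 5 lower. Hspa4l, a nucleotide exchange factor for Hsp70 proteins, had 189, 190 and 203 CPM in PG9V brains against 281, 254 and 276 CPM in WT brains (log2 fold change -0.48 ± 0.07, adjusted p = 0.00903, or 0.0529 without PG9V replicate 1). The unfolded protein response list had 0 of 25 called in edgeR's test, while an unadjusted p under 0.05 was met by 4 genes above and 7 below WT, and DESeq2 called 1 and 3. Its chaperone Hspa5, or BiP, had 198, 224 and 220 CPM in PG9V brains and 329, 386 and 245 CPM in WT brains (log2 fold change -0.58 ± 0.16, adjusted p = 0.0813). Without WT replicate 2 the list had 1 gene higher, and without WT replicate 3 it had 3 lower. Immediate early genes, which mark recent firing, had 0 of 17 called, 0 at an unadjusted p under 0.05 and 1 lower in DESeq2; WT replicate 2 stood 0.63 above the WT mean on the log2 scale, with 1 called lower without WT replicate 1 and 1 higher without WT replicate 2. Clock genes had 0 of 15 called in edgeR's test, 6 at an unadjusted p under 0.05 and 5 in DESeq2, and the synuclein and Parkinson list had 0 of 13, 2 and 0.

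Vessel genes rose in part. Of 17 endothelial genes tested 7 rose and 0 fell (median 0.29), or 3 without PG9V replicate 1, PG9V replicate 2 or WT replicate 1 and 4 without WT replicate 3. Icam1, an adhesion molecule for leukocytes, had 9.24, 9.89 and 9.46 CPM in PG9V brains and 3.41, 3.72 and 3.81 CPM in WT brains (log2 fold change 1.38 ± 0.12, adjusted p = 0.000896). Vwf, the platelet-binding von Willebrand factor, had 30.4, 31.4 and 28.5 CPM in PG9V brains against 15.8, 16.4 and 19.1 CPM in WT brains (log2 fold change 0.81 ± 0.09, adjusted p = 0.00341). The list also holds Lcn2, described above with astrocytes. Among 25 oligodendrocyte genes 2 rose, Serpina3n and C4b, which are also in the astrocyte or complement lists, and 0 fell. The myelin gene Mbp had 6247, 5594 and 4499 CPM in PG9V brains and 4647, 3726 and 3800 CPM in WT brains, which overlap (log2 fold change 0.42 ± 0.14, adjusted p = 0.114). Without PG9V replicate 3 the oligodendrocyte count was 6, and in DESeq2 it was 4.

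Ribosomal protein genes showed a small shift. Of 40 tested 9 rose and 1 fell, at a median fold change of 0.29 on the log2 scale, 39 positive values and 35 genes with every PG9V library above every WT library, as for 15.7% of all genes tested. The count of 9 was 0 without PG9V replicate 1, PG9V replicate 2, WT replicate 1 or WT replicate 3, and 26 without PG9V replicate 3 or in DESeq2. Rplp0, a stalk protein of the large subunit, had 190, 191 and 166 CPM in PG9V brains against 139, 137 and 133 CPM in WT brains (log2 fold change 0.42 ± 0.07, adjusted p = 0.0186, or 0.0677 to 0.0852 without any of those 4 libraries). The list's means were 0.29, 0.38 and 0.13 in the PG9V libraries. The gene that fell, Rps2, has copies in the genome that matter for its count.

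Several of the strongest calls in both directions were genes with near-identical copies, for which estimated counts can divide reads between copies. Of 763 pseudogenes tested 288 matched a gene at 97% identity or more over at least 90% of their length. Of these 288 matched pseudogenes 17 were called higher and 3 lower, against 3.31% higher and 1.44% lower over all genes tested. After their counts were summed into the 199 matching genes, an alternative chosen after seeing the data, 12 of 21 called genes were still called in the same direction, 8 were no longer called and 1, Rps2, reversed.

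Rps3a1, a protein of the small ribosomal subunit, had 30.2, 29.6 and 26.8 CPM in PG9V brains and 233, 222 and 223 CPM in WT brains (log2 fold change -2.97 ± 0.07, adjusted p = 1.83e-07). Its copy Rps3a2 had 139, 151 and 135 CPM in PG9V brains and 0.104, 0.172 and 0.168 CPM in WT brains, and Rps3a3 had 43.1, 51.2 and 43.1 CPM in PG9V brains and 0.0348, 0.0688 and 0.112 CPM in WT brains. Summed over the copies, PG9V brains had 213, 233 and 205 CPM and WT brains 233, 223 and 223 CPM, with a log2 fold change of -0.06 ± 0.07 (adjusted p = 0.648). The total was thus shared out differently between copies in the genotypes, with no detectable difference in the sum. The copies differ from Rps3a1 at few bases, and the stretch from base 742 to base 801 of the Rps3a1 transcript is shown because it holds 3 of the differing positions, in capitals. Counted from 1 at the start of the Rps3a1 transcript, they are A778T and T801C in Rps3a2 and A793G in Rps3a3.
Rps3a1: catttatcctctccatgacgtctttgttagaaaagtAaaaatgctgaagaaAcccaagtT
Rps3a2: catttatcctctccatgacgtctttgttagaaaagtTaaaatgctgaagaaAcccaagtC
Rps3a3: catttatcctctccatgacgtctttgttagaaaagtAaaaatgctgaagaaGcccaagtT

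A similar division appeared at the mitochondrial gene mt-Nd3, a subunit of complex I. It had 969, 1084 and 842 CPM in PG9V brains against 263, 252 and 217 CPM in WT brains (log2 fold change 1.98 ± 0.11, adjusted p = 7.96e-05). Gm28438, a nuclear pseudogene of it on chromosome 1, had 0 counts in every PG9V library and 402, 401 and 415 CPM in the WT libraries. The transcripts differ at a single base, T3C, counted from 1 at the start of the mt-Nd3 transcript and shown in capitals.
mt-Nd3: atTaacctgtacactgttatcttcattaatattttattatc
Gm28438: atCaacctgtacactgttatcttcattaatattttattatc

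The sum of both was 969, 1085 and 842 CPM in PG9V brains and 665, 654 and 631 CPM in WT brains, a log2 fold change of 0.57 ± 0.10 (adjusted p = 0.0162) in place of 1.98. Of 13 mitochondrially encoded genes tested 3 rose, mt-Nd3, mt-Nd1 and mt-Co3, with a median of 0.28. The count was 1 without any 1 library but PG9V replicate 3, and 5 without that one; DESeq2 called 9. mt-Co3 had a log2 fold change of 0.64 (adjusted p = 0.0271) alone and 0.32 (adjusted p = 0.069) when summed with its pseudogene Gm28437.

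Rps2 had 140, 136 and 116 CPM in PG9V brains and 204, 204 and 208 CPM in WT brains (log2 fold change -0.65 ± 0.08, adjusted p = 0.0049, or 0.819 in the fit of all 9 libraries). Its copy Rps2-ps13 had 148, 142 and 136 CPM in PG9V brains, against 0, 0 and 0.224 CPM in WT brains. With its copies Rps2 summed to 314, 304 and 276 CPM in PG9V brains and 206, 206 and 210 CPM in WT brains, a rise of 0.52 ± 0.07 (adjusted p = 0.00661). Rpl21, of the large subunit, had a log2 fold change of -1.83 ± 0.09 alone (adjusted p = 2.54e-05, or 0.152 in the fit of all 9 libraries) and -0.09 ± 0.08 (adjusted p = 0.537) with its copies, of which Gm10163 had 109, 103 and 91.6 CPM in PG9V brains and 3.79, 2.92 and 2.02 CPM in WT brains. Rnps1, a splicing factor whose call was not kept in all 6 fits without 1 library, had -0.34 alone and -0.15 (adjusted p = 0.15) with its copy Gm9825.

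**Figure D5:**
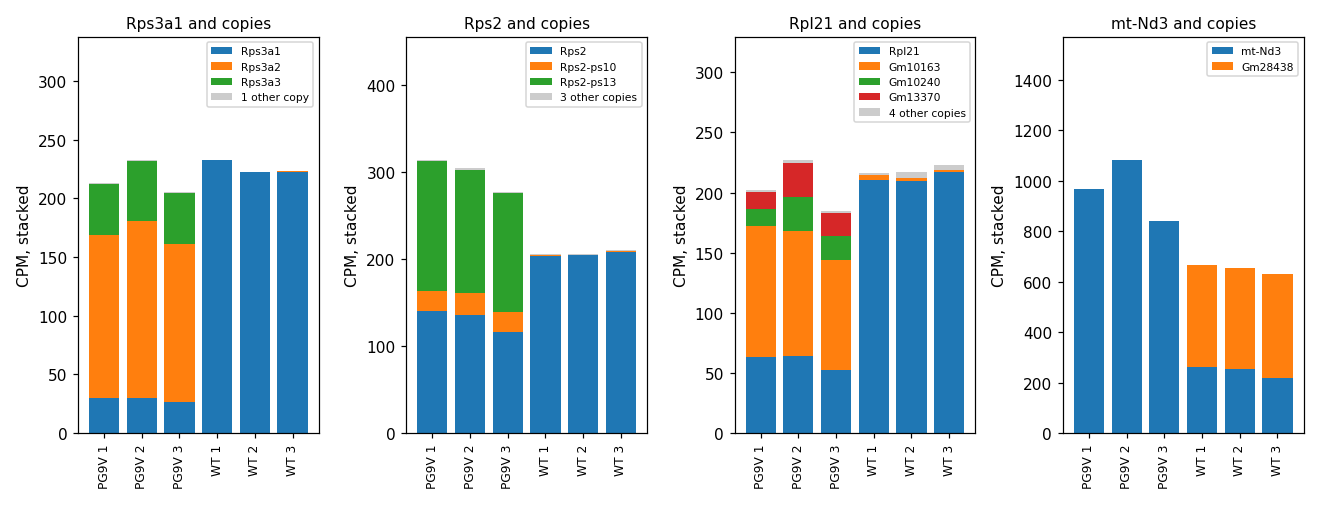
Stacked CPM (vertical axis, from 0) of 4 genes and their near-identical copies in each library, PG9V left of WT. Rps3a1 and its copies sum to 205 to 233 CPM in PG9V and 223 to 233 CPM in WT, while the blue part, the gene itself, is 26.8 to 30.2 CPM in PG9V and 222 to 233 CPM in WT.

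Some changes sat in genes known to differ between inbred mouse strains. Of 13 such genes tested 2 fell and 2 rose, and the count of rises was 1 without PG9V replicate 1, PG9V replicate 2 or WT replicate 1. Over all genes tested 1.44% fell and 3.31% rose. Gabra2, a GABA-A receptor subunit with an intronic deletion in C57BL/6J mice, had 55.7, 57.4 and 53.5 CPM in PG9V brains and 114, 117 and 128 CPM in WT brains (log2 fold change -1.10 ± 0.07, adjusted p = 0.000103). Nnt, a mitochondrial transhydrogenase that lacks exons in the same substrain, had 19.5, 20.0 and 19.5 CPM in PG9V brains against 40.3, 35.5 and 38.0 CPM in WT brains (log2 fold change -0.95 ± 0.07, adjusted p = 0.000411). Entpd4, a Golgi nucleotidase, had 73.1, 70.6 and 74.2 CPM in PG9V brains and 39.9, 38.6 and 41.9 CPM in WT brains (log2 fold change 0.86 ± 0.06, adjusted p = 0.000289). The 3 genes had little spread within a genotype, and genotype and strain background cannot be told apart for them.

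Genes beside Grn were called at shares close to the 4.75% of all tested genes. Of the 100 tested genes nearest to Grn in annotation order, 50 on each side, 6 were called (6%), against 8% with 25 on each side and 5.5% with 100 on each side. Among the higher ones were Gfap and the membrane protein gene Tmem106a. Tmem106a had 4.07, 5.01 and 3.70 CPM in PG9V brains against 1.39, 1.48 and 1.43 CPM in WT brains (log2 fold change 1.57 ± 0.18, adjusted p = 0.00394).

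Set against the other mutant line, PG9V brains had 116 genes higher (0.667% of 17398 tested) and 473 lower (2.72%) than PG9VN brains in a fit of all 9 libraries. These counts turned on single mice: they were 2 and 17 without PG9V replicate 1, 3 and 16 without PG9V replicate 3, 61 and 314 without PG9V replicate 2, 14 and 65 without PG9VN replicate 3, 374 and 746 without PG9VN replicate 2, and 200 and 521 without PG9VN replicate 1. Leaving out WT replicate 1 gave 58 and 342, and leaving out WT replicate 3 gave 58 and 320. Grn did not pass the test, at 4.37, 2.59 and 4.72 CPM in PG9V brains and 4.71, 3.58 and 4.21 CPM in PG9VN brains (log2 fold change -0.10 ± 0.21, adjusted p = 0.882).

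Phagocyte and astrocyte genes were lower in PG9V than in PG9VN. The disease-associated microglia list had 22 of 30 genes lower and 0 higher (median -1.35), and the reactive astrocyte list had 14 of 30 lower and 0 higher (median -1.24). Over all genes only 17 were lower without PG9V replicate 1 and 16 without PG9V replicate 3, fewer than the 22 of the microglia list. Neither list counts nor calls of single genes against PG9VN were followed in the fits without 1 library. Gpnmb had 202, 532 and 170 CPM in PG9V brains and 1183, 1739 and 1747 CPM in PG9VN brains (log2 fold change -2.37 ± 0.41, adjusted p = 0.0221). C3 had 26.4, 29.8 and 21.0 CPM in PG9V brains against 80.5, 93.4 and 103 CPM in PG9VN brains (log2 fold change -1.84 ± 0.18, adjusted p = 0.00547). The type I interferon list had 14 of 34 genes lower in PG9V than in PG9VN (median -1.11).

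Class II, thalamus and hindbrain genes gave other pictures. Of the 9 class II genes 1 was lower in PG9V than in PG9VN, and H2-Aa had a log2 fold change of 0.32 ± 0.21 (adjusted p = 0.531). Thalamus markers were higher in PG9V for 5 of 20 (median 0.68), and Prkcd had 0.62 ± 0.18 (adjusted p = 0.106). Nefh, lower in PG9V than in WT by the values above, had 146, 142 and 131 CPM in PG9V brains and 71.0, 75.7 and 45.1 CPM in PG9VN brains (log2 fold change 1.13 ± 0.18, adjusted p = 0.0156). Of 22 midbrain and hindbrain markers 6 were higher in PG9V, led by transcription factor genes such as Gata3, at 5.72, 6.40 and 3.96 CPM in PG9V brains and 0.647, 0.775 and 0.383 CPM in PG9VN brains (log2 fold change 3.15 ± 0.38, adjusted p = 0.0084). The part of the dissection in that difference was not tested.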

How the data were processed

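Poly(A)-selected RNA of dissected mouse brain was sequenced from stranded libraries, per the labels' protocols. The authors deposited a table of estimated counts per transcript (105129 transcripts, 9 libraries), not scaled by depth or length; with a tolerance of 0.001, 59.6% of them were not whole numbers. Trimmomatic 0.33, FastQC, HISAT2 2.0.5, kallisto 0.43.1 and the build mm39 are named per the submitters' processing notes, without their roles. The test was planned on gene counts, so the estimated counts of each gene were summed over its transcripts and rounded. Spreadsheet software had turned 24 symbols into dates; 173 of their 177 transcripts were resolved by identifier and 4 were left out. Reads that several similar transcripts could give are divided among them by estimation, which leaves the values of near-identical copies uncertain.

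PG9V was tested against WT on these 6 libraries with edgeR 4.0.16 in R 4.3.3 (TMM, filterByExpr, robust quasi-likelihood fit), with Benjamini-Hochberg adjustment over 17057 genes and a threshold of 0.05; the contrast with PG9VN used all 9 libraries. Errors of fold changes, given as SE, are the absolute log2 fold change divided by the square root of the F statistic of the quasi-likelihood test. A count of 3, the floor, equals 0.0849 to 0.105 CPM, for counting error only. The test script was checked on simulated data. Alternatives were RLE size factors, DESeq2 1.42.0, limma-voom (limma 3.58.1), other filters, all 9 libraries, each library left out, Y-linked counts as a covariate or as a criterion, and copies summed (matched with blastn 2.17.0).

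The comparison and the 54 gene lists were chosen with earlier results of these data known, so lists carry counts and medians only. Named genes were Grn, the 15 largest changes each way among called genes of at least 2 CPM without overlap (no predicted genes or pseudogenes), the 10 smallest p-values, the 10 highest levels each way, up to 6 members per list, all members of lists of at most 16 genes, and called neighbours of Grn; some items that this rule names are not reported here. Other genes given, such as list members that did not pass and the copies of Rps2, Rpl21, Rps3a1 and mt-Nd3, were chosen after their values were seen. The reference annotation was of GRCm38, an earlier build than mm39, and matched 98.6% of transcript identifiers; it gave names, gene order and RefSeq promoter windows only.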

Additional observations from a re-analysis of the deposited data

How the results depend on the processing

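For PG9V against WT, where 564 genes were higher and 246 lower, DESeq2 called 892 higher and 675 lower, the fit of all 9 libraries 281 and 26, and the 4 libraries with Y-linked counts alone 116 and 14. Leaving out 1 library gave 179 to 648 higher and 31 to 233 lower. RLE, limma-voom, no filter, a mean of at least 1 CPM, the Y-linked covariate and summed copies stayed within 1.5 times of both counts. For PG9V against PG9VN, where 116 were higher and 473 lower, DESeq2 called 376 and 857, and leaving out 1 library gave 2 to 374 higher and 16 to 746 lower. Of 6615 values of named genes under alternatives 5772 kept their call or their lack of a call, 734 lost the call and 108 gained it. The call reversed in 1: Rps2, at 0.52 with its copies summed. Direction was not compared where neither fit made a call. Of 196 named genes with a call, 82 kept it in all 6 fits without 1 library. The cause of these shifts was not tested, beyond the fewer libraries in the fits that leave some out. No paired analysis was possible because replicate numbers were given in accession order.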

Other observations

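A few genes with large rises had another order of PG9V libraries than the phagocyte genes. Olfr137, an olfactory receptor gene, had 25.2, 10.9 and 14.3 CPM in PG9V brains and 1.60, 1.75 and 0.784 CPM in WT brains (log2 fold change 3.62 ± 0.44, adjusted p = 0.0113 in edgeR's test, or 0.0674 without WT replicate 1). Acsm2, a medium-chain acyl-CoA synthetase, had 22.4, 8.87 and 14 CPM in PG9V brains and 1.71, 1.65 and 1.15 CPM in WT brains (log2 fold change 3.33 ± 0.38, adjusted p = 0.00833, or 0.0557 without WT replicate 1 and 0.0503 without WT replicate 3). Both were highest in PG9V replicate 1. Abhd12b, a serine hydrolase gene, had 5.17, 4.78 and 5.08 CPM in PG9V brains and 21.1, 16.9 and 14.1 CPM in WT brains (log2 fold change -1.79 ± 0.16, adjusted p = 0.000983). Tmem254a and Tmem254b had the same value in each library, so their reads cannot be told apart.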
